A study of Rattus norvegicus with 24 samples.

Results

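Apolipoproteins and the proteins that build, remodel and export lipoproteins were followed in rat liver by the messenger RNA of Apoa1, Apoa2, Apoa4, Apoa5, Apob, Apoc3, Apoe, Mttp, Lcat and Lipc. These 10 genes were chosen by symbol, as the probe sets whose only gene name in the platform annotation was one of them. A probe set was found for 8 of the 10, 1 for each gene, among 20917 probe sets in all. Apoa1 and Apoc3 are not analysed here. All 8 probe sets passed the filter on low signal and were tested among 15687.

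The livers came from 24 adult Sprague-Dawley females of the F2 generation, with 1 array per liver. Each female descended from an F0 male kept on chow or on a diet rich in fat (HFD), and in turn was fed chow or such a diet, with fat giving 42 or 45% of the energy, over 12 weeks. The lines are named here after the grandfather's diet. The groups were chow line on chow (GpatCD-CD, 7 arrays), chow line on the HFD (GpatCD-HF, 6), HFD line on chow (GpatHF-CD, 6) and HFD line on the HFD (GpatHF-HF, 5). The labels name no litter, parent or individual grandfather, so related females may be counted as independent, and p-values measure only the spread between these samples. The growth protocol speaks of adipose tissue, whereas every title and tissue label says liver. All 11 measured hepatocyte markers, Alb, Ttr and Tf among them, passed the low-signal filter, with a summed intensity of 78450 to 98850 per array. The 8 adipocyte markers also passed it, with a summed intensity of 1442 to 2432.

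The liver packs triglyceride and cholesterol ester into very-low-density lipoprotein (VLDL) around apolipoprotein B, a step that needs the microsomal triglyceride transfer protein. Exchangeable apolipoproteins then join the particle, direct its lipolysis and present it to receptors, while high-density lipoprotein (HDL) is built on apolipoproteins A-I and A-II and matures as its cholesterol is esterified. Hepatic lipase trims remnants and HDL at the surface of the sinusoid. Apoa1, Apoc3, Apoa4 and Apoa5 lie next to each other, in this order, on rat chromosome 8 of the RefSeq assembly GRCr8.

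The stretches before the starts of Apoa4 and Apoa5 are shown because these are the 2 neighbours of that cluster whose probe sets were measured. Both are on the plus strand of GRCr8, from RefSeq, with 120 bases each, at chr8:55435659-55435778 for Apoa4 and chr8:55457751-55457870 for the first of the listed Apoa5 starts. Capitals mark AGGTCA, which is the core of many nuclear receptor elements. Capitals also mark a TATA box, searched as TATAAA.
Apoa4: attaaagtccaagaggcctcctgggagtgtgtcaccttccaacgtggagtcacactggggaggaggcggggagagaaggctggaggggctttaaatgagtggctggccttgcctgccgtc
Apoa5: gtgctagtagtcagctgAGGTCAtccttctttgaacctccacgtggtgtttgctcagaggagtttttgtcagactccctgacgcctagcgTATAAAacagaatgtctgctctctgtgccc
Over the 250 bases before each of 33469 RefSeq starts and on both strands, AGGTCA was present in 14.1%, TATAAA in 12.9% and CAAAGTCCA, the core bound by HNF4, in 0.338%. No match to CAAAGTCCA was found before the starts of Apoa4, Apoa5, Apoe, Lcat and Lipc, the members with a window. Apoa5 held AGGTCA at -103 to -98 and TATAAA at -30 to -25 from its first start; from its other listed start the same TATAAA lies at -184 to -179. Lipc held AGGTCA at -244 to -239 and on the opposite strand at -232 to -227. These are matches of letters only.

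None of the 8 genes passed the threshold in any comparison, and the largest pairwise difference tested was 1.29-fold, in Apoa4 between the chow-line females on the HFD and on chow. Fold changes come from limma fitted on log2(intensity + 16) over all 15687 probe sets, and a call needs a Benjamini-Hochberg adjusted p under 0.05. For own diet 0 of the 8 genes were called in the chow line, where 0.319% of all probe sets were (0.0765% higher and 0.242% lower on the HFD). In the HFD line 0 were called, where 0.752% of all probe sets were (0.0956% higher and 0.657% lower). The 8 genes also held 0 calls for own diet averaged over the lines, against 1.99% of all probe sets (0.363% higher and 1.63% lower). The grandpaternal diet, on chow, on the HFD and averaged, called 0% of all probe sets and 0 of the 8 genes, as did the interaction of the 2 diets. Over all probe sets the interaction had 57 calls without array 28 and 48 without array 22, none of them among the 8 genes. At an unadjusted p under 0.05 by limma, 5 of the 8 passed for own diet in the chow line (8.8% of all probe sets), 2 in the HFD line (15.8%) and 1 on average (13.3%). After quantile normalization 1 of the 8 intervals lay off 0 for own diet in the chow line, in place of 5. After centring each array on its median, 5 did. As deposited, the limma count at an unadjusted p under 0.05 was 0 for grandpaternal diet on chow (9.15%). On the HFD it was 1 (11% of all), and on average 0 (also 11%). For the interaction it was 2 (9.71%). Median centring left 3 of the 8 intervals off 0 for grandpaternal diet on chow, 0 on the HFD, 1 on average and 1 for the interaction. Quantile normalization left 0 in each of these contrasts. For own diet on average 4 intervals lay off 0 after median centring and 3 after quantile normalization, in place of 1. For own diet in the HFD line 2 did after either. In no pair of groups that differ by 1 diet were the arrays of any of the 8 genes free of overlap, whereas 0.338%, 3.04%, 0.325% and 1.18% of all probe sets were, in the order own diet in the chow line, own diet in the HFD line, grandpaternal diet on chow and on the HFD.

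The confidence intervals show how large a change the values as deposited leave room for, gene by gene and with the females taken as independent. For own diet in the chow line the largest fold inside any of the 8 intervals of 95% was 1.55, in Apoa4, and the smallest such bound was 1.15-fold, in Apoa5. In the HFD line the largest was 1.42-fold, in Mttp. For grandpaternal diet it was 1.37-fold on chow and 1.38-fold on the HFD, both in Apoa4, and for the interaction 1.68-fold, again in Apoa4. With each array centred on its median, the largest was 1.57-fold for own diet in the chow line and 1.33-fold in the HFD line. For grandpaternal diet it was then 1.41-fold on chow and 1.3-fold on the HFD, and for the interaction 1.64-fold.

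**Figure D1:**
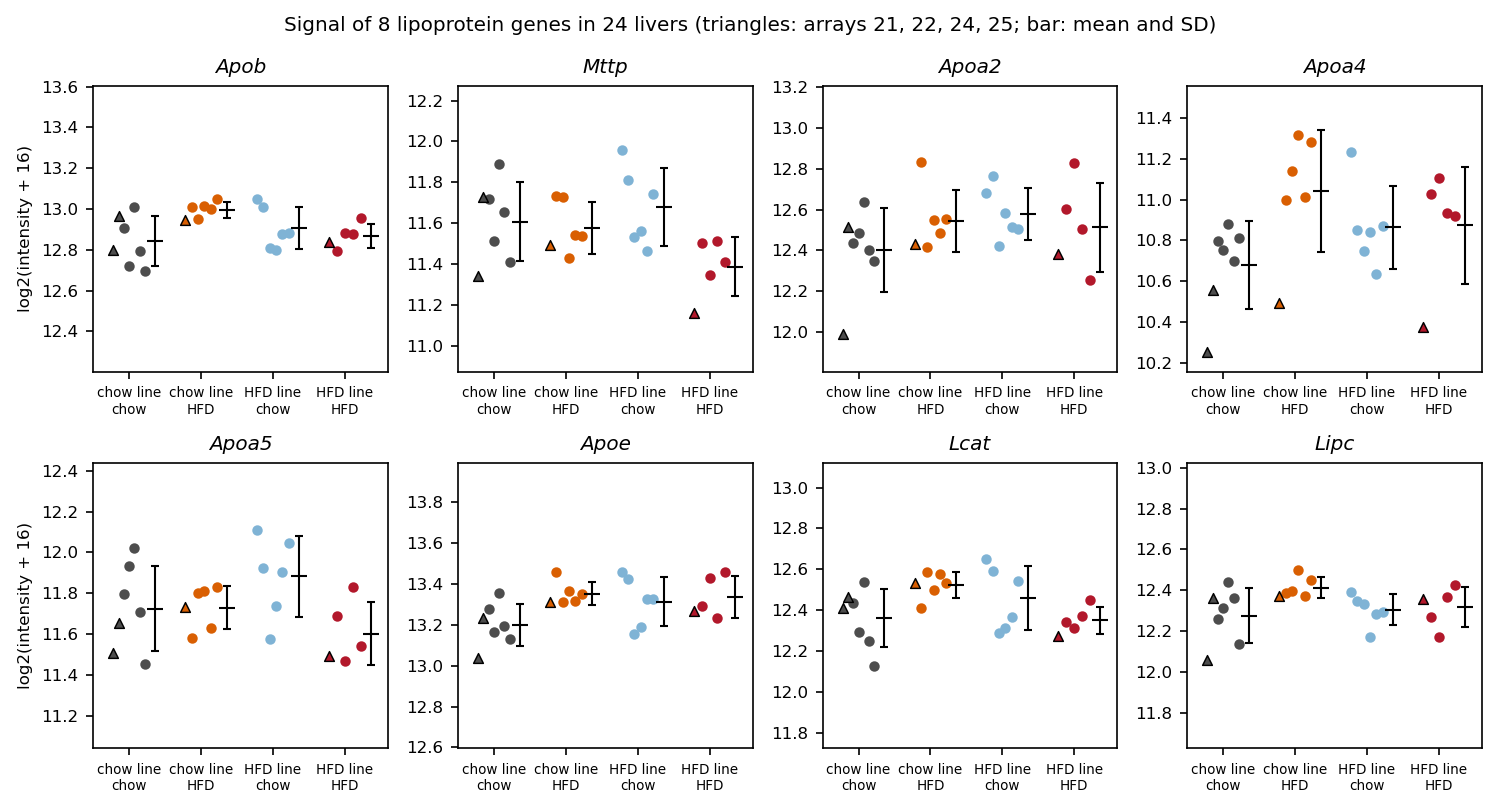
Log2 signal, log2(intensity + 16), of the 8 genes in each of 24 arrays by group; each panel spans 1.4 log2 units, triangles are arrays 21, 22, 24 and 25, and the bar is mean and SD. The groups overlap in every panel; Apoa4 is lowest in arrays 21, 22 and 24 of their groups.

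Apob encodes the structural protein of VLDL. Its log2 signal was 12.70 at the lowest, 12.80 at the median and 13.01 at the highest of the 7 chow-line females on chow, and 12.94, 13.01 and 13.05 in the 6 on the HFD. In the HFD line it came to 12.80, 12.88 and 13.05 on chow, and to 12.80, 12.84, 12.88, 12.88 and 12.95 in arrays 44, 24, 45, 46 and 47 on the HFD. The chow-line HFD arrays sat at the upper end, and arrays 25 and 28 on chow reached into their range. Apob was 0.15 ± 0.06 (SE) higher on the HFD in the chow line (1.11-fold, limma adjusted p = 0.406) and stood at -0.036 ± 0.062 in the HFD line (adjusted p = 0.793). After quantile normalization the chow-line difference was 0.0071 ± 0.0281 (adjusted p = 0.953). After centring each array on its median it was 0.17 ± 0.06 (limma adjusted p = 0.219). Quantile normalization gives every array the same set of values, which can by itself narrow differences among the brightest probe sets. The interaction was -0.19 ± 0.08, with an unadjusted limma p of 0.0329 and an adjusted p of 0.465. It was 0.0015 ± 0.0415 after quantile normalization and -0.14 ± 0.08 after median centring.

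Mttp encodes the transfer protein that loads lipid onto nascent apolipoprotein B. In the chow line its signal was 11.34, 11.65 and 11.89 (lowest, median and highest) on chow and 11.43, 11.54 and 11.73 on the HFD. The HFD line had 11.46, 11.65 and 11.96 on chow, and on the HFD 11.16 in array 24, 11.35 in 45, 11.41 in 47, 11.50 in 44 and 11.51 in 46. The HFD line on the HFD was the lowest group, and its 2 highest arrays still overlapped the 6 on chow. Own diet gave -0.03 ± 0.09 in the chow line and -0.29 ± 0.10 in the HFD line (1.22-fold lower, unadjusted p = 0.00768, limma adjusted p = 0.167). After quantile normalization the HFD-line value was -0.14 ± 0.06 (adjusted p = 0.338), and after median centring -0.23 ± 0.09 (adjusted p = 0.247). Averaged over the lines Mttp was at -0.16 ± 0.07 (adjusted p = 0.281). The same average was -0.12 after quantile normalization (adjusted p = 0.126) and after centring each array on its median (adjusted p = 0.346). Mttp followed array brightness more than most of the 8 genes did. The Pearson r was 0.743 over 24 arrays between its deviations from the group means and those of the array median, a description only. That median was taken over the tested probe sets, whereas the centring used all probe sets. The HFD line on the HFD had the dimmest arrays on average. The mean of their medians over the tested probe sets was 7.83 ± 0.08 (SD, n = 5), against 7.96 ± 0.07 (n = 6) on chow. The part of brightness in the Mttp values was not tested.

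Apoa4, a protein of chylomicrons and HDL that rodent liver makes as well as gut, varied most. Its residual SD, the spread of log2 signal within groups, was 0.25, against 0.09 to 0.18 for the other 7 and a median of 0.19 over all probe sets tested. In the chow line its signal ran from 10.25 through a median of 10.75 to 10.88 on chow, and from 10.49 through 11.08 to 11.32 on the HFD. The HFD line had 10.63, 10.85 and 11.23 on chow, and its HFD arrays had 10.38 in array 24, 10.92 in 47, 10.93 in 46, 11.03 in 44 and 11.10 in 45. All chow-line HFD arrays but array 22 lay above all 7 chow arrays. Own diet gave 0.36 ± 0.13 in the chow line (1.29-fold higher, unadjusted p = 0.0101, limma adjusted p = 0.387) and 0.0097 ± 0.1420 in the HFD line (adjusted p = 0.978). The difference between those 2 effects was -0.35 ± 0.19 (adjusted p = 0.561). After quantile normalization Apoa4 was at 0.34 ± 0.11 in the chow line (adjusted p = 0.214) and 0.15 ± 0.12 in the HFD line (adjusted p = 0.672). Median centring gave 0.38 ± 0.13 (adjusted p = 0.239) and 0.07 ± 0.14 (adjusted p = 0.854). Markers of enterocytes, which also make this protein, stood beside it: 5 of 6 were measured and 3 passed the filter, and their summed intensity was 311.1 to 401.9 in the chow line on chow and 524.4 to 875.3 on the HFD, against 332.2 to 587.2 and 345.6 to 779.9 in the HFD line. Fabp2, the intestinal fatty acid binding protein, rose by 1.35 in the chow line (limma adjusted p = 0.0103), while Vil1 was at 0.086 and Cdx2 at -0.040. The part of enterocyte RNA in the Apoa4 values was not tested.

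Arrays 21, 22 and 24 had the lowest Apoa4 of their groups, by 0.43, 0.55 and 0.50 below the group means (deviations of -0.426, -0.547 and -0.495). An earlier analysis of these data had set these 3 and array 25 apart from the other 20. With the 4 left out, Apoa4 was 0.36 ± 0.09 higher on the HFD in the chow line (adjusted p = 0.13) and 0.25 ± 0.07 on average over the lines (unadjusted p = 0.00122, adjusted p = 0.0549), against 0.19 ± 0.10 on average with all arrays (adjusted p = 0.415). The adjusted p of that average ranged from 0.0549 to 0.472 over the settings other than single arrays left out. Leaving out the lowest Apoa4 arrays of their groups narrows its spread by construction, so the smaller p is no separate support.

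Apoa2, a main protein of HDL, ranged from 11.99 in array 21 to 12.83 in array 31, with group means (± SD) of 12.40 ± 0.20 and 12.55 ± 0.15 in the chow line (7 arrays on chow, 6 on the HFD) and 12.58 ± 0.13 and 12.52 ± 0.22 in the HFD line (6 and 5). The means lay within 0.18 of each other. Its largest pairwise contrast was grandpaternal diet on chow, 0.18 ± 0.09 (limma adjusted p = 0.584).

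Apoa5, which promotes the hydrolysis of triglyceride-rich particles by lipoprotein lipase, had its highest group mean in HFD-line females on chow. Their signal was 11.58, 11.92 and 12.11 (lowest, median and highest), and on the HFD it was 11.47 in array 45, 11.49 in 24, 11.54 in 47, 11.69 in 44 and 11.83 in 46. The chow line had 11.45, 11.71 and 12.02 on chow and 11.58, 11.77 and 11.83 on the HFD. Own diet gave -0.28 ± 0.10 in the HFD line (1.21-fold lower, unadjusted p = 0.0116, limma adjusted p = 0.194) and 0.0048 ± 0.0951 in the chow line (adjusted p = 0.995). The HFD-line value was -0.13 ± 0.08 after quantile normalization (adjusted p = 0.555) and -0.22 ± 0.09 after median centring (adjusted p = 0.295).

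Apoe, the ligand by which remnants are taken up, was the steadiest besides Apob and Lipc, with a residual SD of 0.099. Its group means were 13.20 ± 0.10 and 13.35 ± 0.06 in the chow line (SD; 7 arrays on chow, 6 on the HFD) and 13.31 ± 0.12 and 13.34 ± 0.10 in the HFD line (6 and 5). The chow line on chow was the lowest group, and the other means lay within 0.04. Own diet gave 0.15 ± 0.06 in the chow line (1.11-fold, adjusted p = 0.425) and 0.02 ± 0.06 in the HFD line (limma adjusted p = 0.876). After quantile normalization the chow-line value was 0.0028 ± 0.0280, and after median centring 0.17 ± 0.06 (adjusted p = 0.22).

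Lcat, which esterifies cholesterol on HDL, gave the smallest p of the interaction among the 8 genes. Its signal in the chow line was 12.13, 12.41 and 12.54 (lowest, median and highest) on chow and 12.41, 12.53 and 12.59 on the HFD. In the HFD line it was 12.29, 12.45 and 12.65 on chow and 12.27, 12.31, 12.34, 12.37 and 12.45 in arrays 24, 45, 44, 46 and 47 on the HFD. The HFD arrays stood high in the chow line and low in the HFD line, and both pairs overlapped. Own diet gave 0.16 ± 0.07 in the chow line and -0.11 ± 0.08 in the HFD line, an interaction of -0.27 ± 0.10 (unadjusted p = 0.0134, limma adjusted p = 0.406). After quantile normalization the interaction was -0.09 ± 0.06 (adjusted p = 0.882), and after median centring -0.23 ± 0.10 (adjusted p = 0.509).

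Lipc, the hepatic lipase, had group means of 12.28 ± 0.14 (SD, n = 7), 12.41 ± 0.05 (n = 6), 12.30 ± 0.08 (n = 6) and 12.32 ± 0.10 (n = 5). Its chow-line HFD arrays ran from 12.37 to 12.50, within or above the 12.06 to 12.44 of the chow arrays. Own diet gave 0.14 ± 0.06 in the chow line (1.1-fold, limma adjusted p = 0.528) and 0.01 ± 0.07 in the HFD line (adjusted p = 0.933). After quantile normalization these were 0.04 ± 0.04 (adjusted p = 0.771) and 0.11 ± 0.05 (adjusted p = 0.347), so the larger value moved to the HFD line. Median centring gave 0.15 ± 0.05 (adjusted p = 0.232) and 0.08 ± 0.06 (adjusted p = 0.566).

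For the diet of the F0 male none of the 8 genes passed, and the signs of several turned with the scaling of the arrays. On chow the largest value was Apoa4, 0.18 ± 0.13 higher in the HFD line (limma adjusted p = 0.694), followed by Apoa2 at 0.18 ± 0.09 and Apoa5 at 0.16 ± 0.10 (adjusted p = 0.634). Apoe was at 0.11 ± 0.06 (unadjusted p = 0.0614, adjusted p = 0.561), and Apob, Mttp, Lcat and Lipc lay between 0.028 and 0.099. On the HFD all 8 were lower in the HFD line. Mttp was at -0.19 ± 0.10 (limma adjusted p = 0.464), Lcat at -0.17 ± 0.08 (unadjusted p = 0.0297, adjusted p = 0.436), Apoa4 at -0.17 ± 0.14 (adjusted p = 0.606) and Apob at -0.13 ± 0.06 (adjusted p = 0.45). Averaged over own diets, the 8 values lay between -0.060 for Mttp and 0.073 for Apoa2. The largest fold inside any of their intervals was 1.16, in Apoa2, and 1.21 after median centring, also in Apoa2.

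**Figure D2:**
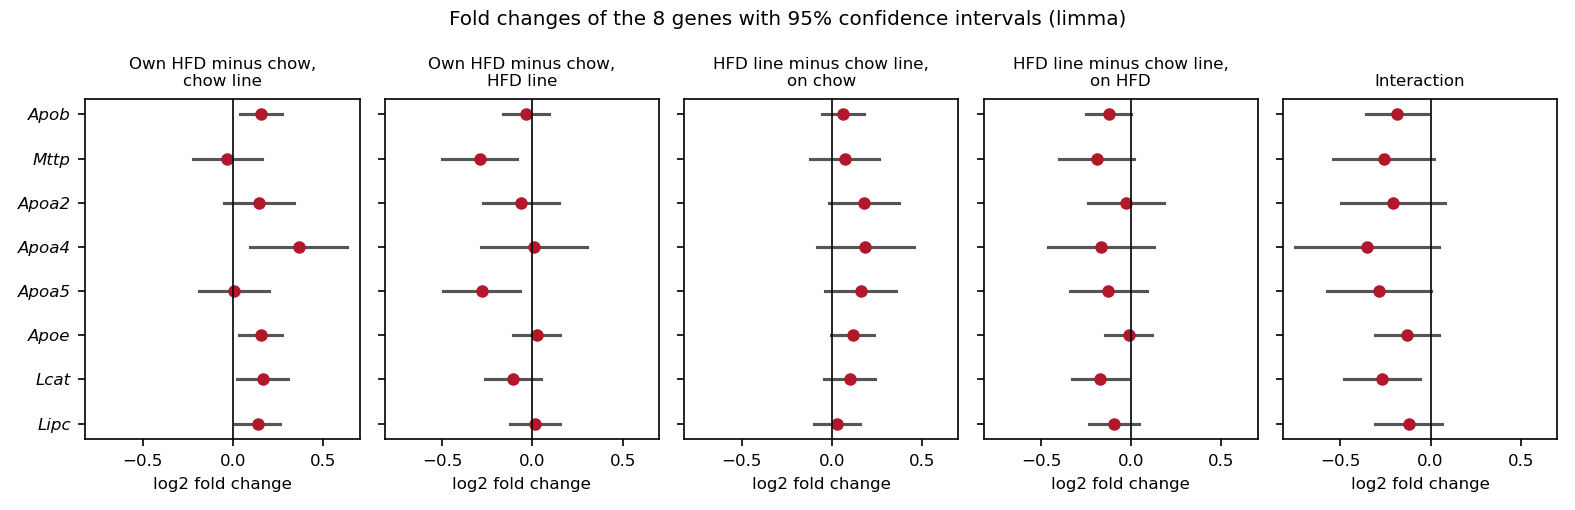
Log2 fold change (dot) and 95% confidence interval (line) of each gene in 4 pairwise contrasts and their interaction, from limma on the values as deposited. For own diet in the chow line 5 intervals lie off 0, for own diet in the HFD line 2, for grandpaternal diet on chow 0, on the HFD 1, and for the interaction 2; the adjusted p of each was above 0.05.

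The signs of the 8 genes differed between contrasts. As deposited, 7 of 8 were above 0 for own diet in the chow line (median 0.15, against 0.013 over all probe sets) and 3 of 8 in the HFD line (median -0.050, against -0.086). All 8 were above 0 for grandpaternal diet on chow (median 0.11, all probe sets -0.012) and below 0 on the HFD (-0.13 and -0.10), and all 8 were below 0 for the interaction (-0.23 and -0.098). These contrasts share groups, so their signs are not separate observations. The signs moved with the scaling of the arrays. After quantile normalization 6 of 8 stood above 0 for own diet in the chow line (median 0.018), and 3 of 8 for the interaction (median -0.038). For grandpaternal diet it left 6 of 8 above 0 on chow and 4 on the HFD. Median centring left 7 of 8, 0, 8 and 2 above 0 in the same order of contrasts.

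The hepatocyte markers were read in the same contrasts. All 11 were above 0 for own diet in the chow line (median 0.13, against 0.013 over all probe sets). All 11 were below 0 for own diet in the HFD line (median -0.058, against -0.086) and for the interaction (median -0.19, against -0.098). For grandpaternal diet all 11 were above 0 on chow (median 0.092, against -0.012). On the HFD all 11 were below 0 (median -0.105, against -0.103). All 8 genes had the same signs for grandpaternal diet as deposited. In each of these contrasts 0 markers were called by limma. Their summed intensity was 78450 to 94640 in the chow line on chow, 87970 to 94280 on the HFD, 83250 to 98850 in the HFD line on chow and 81600 to 90780 on the HFD, with no marker at 0. All 11 Kupffer cell and macrophage markers were below 0 for own diet in the chow line (median -0.48; Marco passed), with sums of 6258 to 10350 on chow and 3705 to 6621 on the HFD. In the HFD line all 11 were again below 0 (median -0.32; Marco passed), and the sums were 5093 to 9062 on chow and 4593 to 7547 on the HFD. The part of either list in the values of the 8 genes was not tested. In bulk liver, fewer cells of a type and less RNA per cell cannot be told apart.

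**Figure D3:**
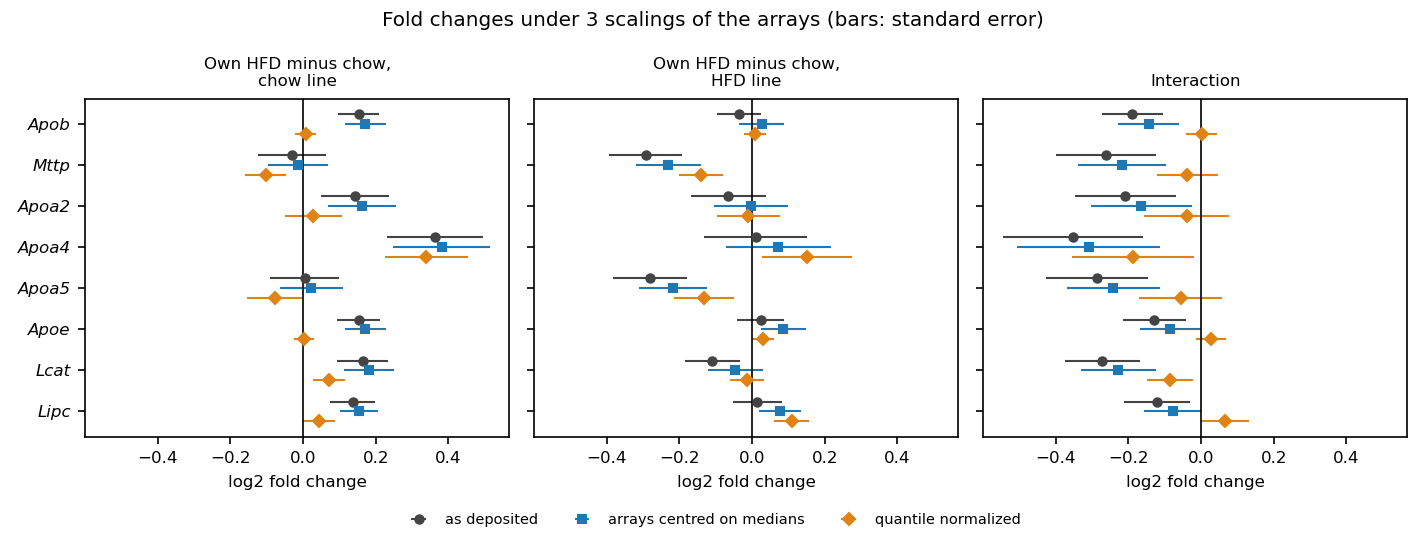
Log2 fold change with its standard error for own diet in each line and for the interaction, as deposited (circles), with arrays centred on their medians (squares) and after quantile normalization (diamonds). Quantile normalization brings the interaction of Apob to 0.0015, of Apoe to 0.027 and of Lipc to 0.065, from -0.19, -0.13 and -0.12 as deposited. With median centring they are -0.14, -0.085 and -0.077. Quantile normalization gives every array the same set of values, which can by itself narrow differences among the brightest probe sets.

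Within groups, the 8 genes rose and fell together from array to array. After the group means were subtracted, the Pearson r over 24 arrays was above 0 in all 28 pairs, with a median of 0.514, against a median of 0.186 over all pairs of tested probe sets. All pairs share the same 24 arrays and their brightness, so these are descriptions. The median over all pairs was taken only as deposited, and no set of equally bright genes was compared. Lcat with Apob (0.807) and Apoe with Apob (0.781) were the closest pairs, and Apoa2 with Lcat (0.0899) and Apoa4 with Lcat (0.202) the loosest. Apoa4 and its neighbour Apoa5 stood at 0.434. With each array centred on its median the 28 values had a median of 0.465, and without arrays 21, 22, 24 and 25 they had a median of 0.455 and ran from -0.111 to 0.846. Lcat with Apob was 0.817 and 0.831 in those settings.

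**Figure D4:**
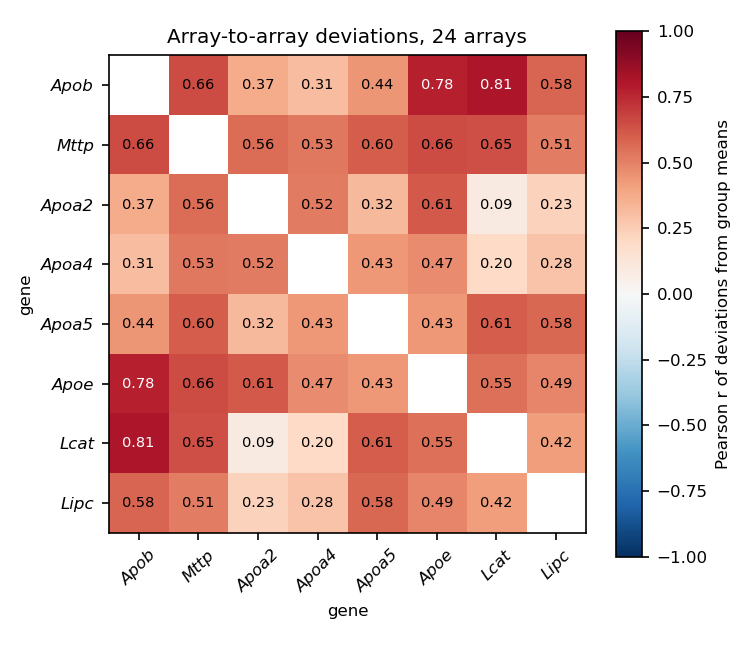
Pearson r between the deviations of each pair of genes from their group means over 24 arrays, as deposited; red is above 0. All 28 pairs are above 0, from 0.09 for Apoa2 with Lcat to 0.81 for Apob with Lcat.

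For the 3 genes with the largest residual SD, the genes most like them were sought among all named probe sets by the same measure. Deviations of Apoa4 were followed most closely by Szrd1 (0.899), Ndufa1 (0.893), Psma5 (0.882), Eef1d (0.881) and Acad9 (0.881). For Apoa2 they were Zbed3 (0.794), Aldoa (0.783), Ggcx (0.762), Glmp (0.753) and Tmprss6 (0.751), and for Apoa5 Ngdn (0.86), Cdc25a (0.859), Map3k3 (0.845), Med22 (0.845) and Wipi2 (0.844). No member of the lipoprotein set was among them.

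A list of other apolipoproteins, with the apolipoprotein B mRNA editing factors Apobec1 and A1cf, was measured too. Of its 10 measured genes, 0 were called in any contrast by limma, and their median for own diet in the chow line was 0.12. Apoc2, the cofactor of lipoprotein lipase, had the smallest p, 0.25 ± 0.08 for own diet in the chow line (unadjusted p = 0.0055, limma adjusted p = 0.32), from 12.49 ± 0.16 (SD, n = 7) to 12.74 ± 0.11 (n = 6). Apoh, beta-2-glycoprotein I, had an interaction of -0.27 ± 0.10 (adjusted p = 0.411). Apom, the carrier of sphingosine-1-phosphate on HDL, was at -0.19 ± 0.08 for grandpaternal diet on the HFD (adjusted p = 0.434).

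Genes of VLDL assembly and secretion held 0 calls among 18 measured. Dgat2, the enzyme of the last step of triglyceride synthesis, came closest. Its signal averaged 12.34 ± 0.16 and 12.55 ± 0.15 in the chow line (SD; 7 arrays on chow, 6 on the HFD) and 12.31 ± 0.12 and 12.52 ± 0.10 in the HFD line (6 and 5). Its average own-diet difference was 0.21 ± 0.06 (unadjusted p = 0.00122, limma adjusted p = 0.057), with 0.21 in either line. It passed after quantile normalization (0.20, adjusted p = 0.00292) and median centring (0.25, adjusted p = 0.00775), and in the HFD line alone after quantile normalization (0.28, adjusted p = 0.0137). Creb3l3, a membrane-bound transcription factor of liver lipid metabolism, had an interaction of -0.41 ± 0.15 (adjusted p = 0.385), and Tmem41b, a lipid scramblase of the endoplasmic reticulum, was at -0.26 ± 0.09 for grandpaternal diet on average (adjusted p = 0.334).

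HDL formation and remodelling had 7 genes tested and lipoprotein lipolysis and uptake had 9, with 0 calls in any contrast by limma. Bmp1, a protease that matures apolipoprotein A-I, was at -0.30 ± 0.09 for grandpaternal diet on the HFD (unadjusted p = 0.00392, adjusted p = 0.336). Ephx2, a soluble epoxide hydrolase, was at 0.98 ± 0.40 for own diet in the chow line (adjusted p = 0.453), and Pdzk1, the adaptor of the HDL receptor, at -0.30 ± 0.13 for own diet in the HFD line (adjusted p = 0.283). Lpl, the lipoprotein lipase, was at -0.44 ± 0.16 for grandpaternal diet on average (unadjusted p = 0.00928, limma adjusted p = 0.345). Lrpap1, a chaperone of the LDL receptor family, was at -0.18 ± 0.07 for own diet on average (adjusted p = 0.202), and Lmf1, which matures lipases, at -0.27 ± 0.11 in the HFD line (adjusted p = 0.217).

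Transcriptional regulators were the only one of these 5 lists with calls, 2 genes among 18 for own diet on average (1.99% of all probe sets) and 1 of them also in the chow line (0.319%). Nr0b2, a repressor of bile acid synthesis and partner of HNF4, rose on the HFD by 0.85 ± 0.18 on average (1.8-fold, limma adjusted p = 0.0109). In the chow line it went from 8.91 ± 0.61 (SD, n = 7) to 10.04 ± 0.35 (n = 6), a rise of 1.13 ± 0.25 (adjusted p = 0.0354). That chow-line call was lost without array 21, 25, 26, 29, 31, 32, 33, 34 or 35, with adjusted p from 0.0582 to 0.13, while the average kept adjusted p of 0.00557 to 0.0239 in the 24 such fits. In the HFD line Nr0b2 was at 0.56 ± 0.27 (adjusted p = 0.309). Srebf2, the regulator of cholesterol synthesis, fell by 0.47 ± 0.10 on average (1.39-fold, adjusted p = 0.0114), with -0.46 ± 0.14 in the chow line and -0.49 ± 0.15 in the HFD line, neither of them called as deposited; the chow-line value was called with arrays 21, 22, 24 and 25 as a block (-0.51, adjusted p = 0.0232). Creb3l3 was the regulator with the next smallest p, given above. Hnf4a, Foxa2 and the other regulators held 0 calls by limma.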

How the data were processed

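Each array was hybridised with labelled cDNA from liver RNA. The values deposited by the authors are linear intensities, 1 for each probe set on each array. The submitters' processing notes name PLIER and Affymetrix Expression Console; for their versions, background step and normalization, nothing is given in the sources used here. Medians over all probe sets ran from 97.93 to 127.6, so the deposited intensities were not brought to 1 distribution. The number of arrays limits the precision.

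From these values log2(intensity + 16) was computed, the dimmest 25% by mean signal (5230 of 20917 probe sets) were dropped, and limma 3.58.1 (R 4.3.3; eBayes with trend) estimated 4 group means from all 24 arrays. Tests were two-sided, with Benjamini-Hochberg adjustment over 15687 probe sets and a threshold of 0.05. Every fold change is on the log2(value + 16) scale, which understates dim probe sets; ± after one is its standard error. The fit was tested on simulated data. Of all probe sets, 18197 had 1 gene (18052 matched to RefSeq through Entrez identifiers), 960 several and 1760 none here. A gene on several probe sets was represented by the one with the highest mean.

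The members, lists, rules and alternatives were chosen with earlier results of these data known. All members are named, and from each list the genes called in any contrast plus the 3 with the smallest p.

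Alternatives were quantile normalization, median centring, no filter or 50%, offsets of 1 and 50, eBayes without trend or robust, array weights, a single probe set for each gene, fits of just the groups in a comparison, arrays 21, 22, 24 and 25 removed or as a block, and each array left out. For Nr0b2, Srebf2 and Dgat2 they were run after their values were seen. For the members, changes of filter, eBayes option or probe set choice keep the group means, so no sign can turn. Fitting just the groups compared, or leaving out an array outside them, keeps those means too.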

Additional observations from a re-analysis of the deposited data

Results flagged for a closer look

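Among 32 sets of values (8 genes in 4 groups), 3 held an array far from the others of its group by Dixon's ratio, where chance gives about 1 in 20. Apoa4 in array 24 (HFD line on the HFD) was 10.38, with the nearest array at 10.92 (ratio 0.746, limit 0.71). Apoa2 in array 31 (chow line on the HFD) was 12.83, with the nearest at 12.55 (ratio 0.676, limit 0.625). Apoe in the same array 31 was 13.46, with the nearest at 13.36 (ratio 0.644, limit 0.625). The interaction was not called for any of the 8 genes, so no effect was listed as differing between the lines.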

How the results depend on the processing

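In all 37 alternatives for the pairwise contrasts and 36 for the others, 0 of the 8 genes were called. The smallest adjusted p over them was 0.0549, for Apoa4 under own diet on average with arrays 21, 22, 24 and 25 left out; it was 0.0754 in the chow line (Apoa4, array weights), 0.118 in the HFD line (Apoa5, without array 39), 0.286 and 0.26 for grandpaternal diet on chow and on the HFD (Apoe, Apob), 0.18 for the interaction (Lcat, without array 28) and 0.445 for grandpaternal diet on average (Lipc). Of 2048 values, 1985 kept their direction, many by construction. The other 63 changed sign, all uncalled, and the cause was not tested.

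After quantile normalization the sign turned for Apoa5 under own diet in the chow line (-0.0763), Apob under own diet in the HFD line (0.00862), Apob (-0.0242) and Lipc (-0.0483) under grandpaternal diet on chow, Apoa2 (0.0685), Apoa5 (0.0315), Apoe (0.0372) and Lipc (0.017) under grandpaternal diet on the HFD, and Apob (0.00148), Apoe (0.0274) and Lipc (0.0653) in the interaction. After median centring it turned for Apob under own diet in the HFD line (0.0267), Apoa2 (0.0534) and Apoe (0.0698) under grandpaternal diet on the HFD, and Apob (0.0307), Mttp (0.00259), Lcat (0.0246) and Lipc (0.0293) under grandpaternal diet on average. Array weights turned Apoa5 under own diet in the chow line (-0.022), Lipc under grandpaternal diet on chow (-0.00366) and Apoa4 under grandpaternal diet on average (-0.0516). Without arrays 21, 22, 24 and 25 Apoa5 was -0.0533 and Apoa4 -0.0396 in those contrasts, and with the 4 as a block Apoa5 was -0.0109, Apoa4 -0.0577 and Apoa5 under grandpaternal diet on average -0.000676.

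With 1 array left out, values ran across 0 for Apoa5 (-0.0405 to 0.0543) and Mttp (-0.0755 to 0.0161) under own diet in the chow line; Apoa4 (-0.0483 to 0.134), Apoe (-0.00815 to 0.0522) and Lipc (-0.0126 to 0.0509) in the HFD line; Lipc under grandpaternal diet on chow (-0.00809 to 0.0557); Apoa2 (-0.109 to 0.0336) and Apoe (-0.0454 to 0.0107) on the HFD; and Apoa4 (-0.0469 to 0.0697) and Apoa5 (-0.0124 to 0.0466) on average. The calls over all probe sets moved more. For own diet in the chow line there were 50 (12 higher, 38 lower), but 89 after quantile normalization (24 and 65), 79 after centring (25 and 54) and 95 with array weights. In the HFD line there were 118 (15 and 103), but 90 after quantile normalization (34 and 56), 98 after centring (25 and 73), 186 with array weights, 77 without arrays 21, 22, 24 and 25, and 56, 58, 65, 69 and 72 without array 42, 45, 37, 24 and 44. The average had 312 (57 and 255), but 427 (167 and 260), 333 (121 and 212) and 581 in the first 3 of these settings, and 214 to 468 with 1 array left out. The interaction had 0, but 57 without array 28 and 48 without array 22. Grandpaternal diet on average had 0, but 54 with array weights, 4 with robust eBayes or the lowest 50% left out and 2 with arrays 21, 22, 24 and 25 left out or as a block; on chow it had 1 after quantile normalization. With 1 array left out it reached at most 7 on average, 1 on chow and 4 on the HFD, and own diet in the chow line ran from 34 to 56. Dgat2 under own diet on average also passed with array weights (adjusted p = 0.024), the lowest 50% left out (0.0456), the block (0.0374) and without array 25, 28, 22 or 38. The chow-line call of Nr0b2 also ended with robust eBayes (adjusted p = 0.0874) and without arrays 21, 22, 24 and 25 (0.0719). No array number occurs in more than 1 group, so no paired analysis was possible.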

Other observations

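Within an array, the log2 signal of Mttp less that of Apob cancels brightness only where it acts equally on both genes. The deviations of Mttp followed the array median with a Pearson r of 0.743 and those of Apob with 0.555. Their residual SDs were 0.169 and 0.090, so the difference can still hold a part of brightness, which was not tested. It was -1.23 ± 0.11 (SD, n = 7) in the chow line on chow and -1.42 ± 0.14 (n = 6) on the HFD, and -1.23 ± 0.11 (n = 6) in the HFD line on chow and -1.48 ± 0.16 (n = 5) on the HFD. The ranges overlapped in both lines, from -1.46 to -1.12 on chow against -1.59 to -1.22 on the HFD in the chow line, and from -1.41 to -1.09 against -1.68 to -1.29 in the HFD line. The pair was chosen after its values were seen, so no test is given, and only the change of this difference between groups can be read, not its level.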
